A study of Mus musculus with 9 samples.

Results

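Nr2e1, EYFP_id.1 and NeoR_KanR_id.1 are the driver gene and the transgene readouts of a lineage-tracing mouse line, and they were followed across single cells of the adult brain. These 3 genes were taken by name from the 32287 gene rows of the deposited matrices. Nr2e1 (identifier ENSMUSG00000019803.11) lies on the minus strand of chromosome 10, from base 42561963 to 42583632 of GRCm38, where GENCODE vM21 lists 4 transcripts for it. The other rows are named for the enhanced yellow fluorescent protein (eYFP) and for a neomycin/kanamycin resistance gene (NeoR/KanR).

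Tlx, the protein made from Nr2e1, is an orphan nuclear receptor that represses transcription together with histone deacetylases and the demethylase Lsd1, and it is known for keeping adult neural stem cells able to self-renew. In the TiCY line a tamoxifen-inducible Cre recombinase is controlled by Nr2e1 sequences. Cre removes a floxed stop sequence from the reporter at the ROSA26 locus, after which the cell and its descendants make eYFP from a ubiquitous promoter. The stop sequence of this reporter carries a resistance gene, as do many knockout alleles. Nr2e1 RNA thus reports on the present state of a cell, and eYFP RNA on its ancestry. In the ventricular-subventricular zone (vSVZ), quiescent stem cells are astroglia that become activated, divide as progenitors and give rise to neuroblasts, which migrate to the olfactory bulb and mature into neurons.

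The 4 libraries were made by droplet 3′ sequencing, 1 library per group from 2 male mice. All groups carried the Cre transgene B6-Tg(Nr2e1-Cre/ERT2)1Gsc, the reporter allele Gt(ROSA)26Sortm1(EYFP)Cos and Fastm1Cgn, and all received tamoxifen. The IFNAGR KO groups also carried the interferon receptor alleles Ifnar1tm1Agt and Ifngr1tmAgt. WT young mice were 16 weeks old, with tamoxifen at 10 weeks, and WT old mice were 80 weeks old, with tamoxifen at 71 weeks. KO young mice were 16 weeks old, with tamoxifen at 7 weeks, and KO old mice were 92 and 105 weeks old, with tamoxifen at 85 and 98 weeks. The interval from tamoxifen to analysis was 6 weeks in WT young and is labelled as 9 weeks for the other groups, although the ages given for KO old differ by 7 weeks. Every group was its own reaction, so group and reaction cannot be told apart. Cells negative for CD45, Ter119 and O4 were sorted, as eYFP-positive and as GLAST-positive cells from the vSVZ, and as eYFP-positive and as eYFP-negative, PSA-NCAM-low cells from the striatum, migratory stream and olfactory bulb (rest of the brain, RoB). The reporter was therefore itself a sorting criterion.

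After filtering, 18055 cells remained, with a median depth of 5026 UMIs per cell in WT young and of 7060 to 7393 in the other libraries, and pairs of libraries shared 3 to 9 cell barcodes. Levels are given as CPM, the UMIs of a gene per 1000000 UMIs of the cells named. The knockout check matched the labels, since Ifngr1 stood at 46.9 and 85.4 CPM in the WT libraries against 2.88 and 4.402 in the KO libraries, and Ifnar1 at 21.2 and 28.6 against 8.08 and 6.56. Of the retained cells, 15464 fell into 6 marker gates: Thbs4+ astroglia (the gate meant to hold the stem cells), Thbs4- astroglia, activated cells, dividing cells, neuroblasts and neurons. None of the 3 genes set a gate. Of 15 genes held out of the gates, 14 were highest in their own gate in all 4 libraries, the exception being Fabp7. Hashtags gave a mouse and a tissue to 5815 cells (32.2%), including 52.5% of Thbs4+ astroglia but only 11.2% of neuroblasts and 11.3% of dividing cells. The hashtag names give only a tissue and a number. That equal numbers in both tissues of a library mean the same mouse was assumed, and all comparisons within mice rest on it.

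Nr2e1 was highest in the stem cell gate and lower in each later gate. The levels in Thbs4+ astroglia were 233, 203, 220 and 173 CPM in the libraries of young and old WT mice and of young and old KO mice, an order kept for all values of 4 libraries that follow. Thbs4- astroglia had 151, 132, 142 and 123 CPM, activated cells 51.4, 104, 79.4 and 66.1, and dividing cells 41.4, 40.8, 35.3 and 31.3. The means over libraries were 207 ± 26.1 (SD, n = 4), 137 ± 12.1, 75.3 ± 22.5 and 37.2 ± 4.78 in these gates. Neighbouring gates did not overlap, although the lowest activated value (51.4, WT young) and the highest dividing value (41.4, WT young) lay close together.

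Neuroblasts had almost no Nr2e1, with 2.77, 1.07, 2.50 and 0.998 CPM, and neurons were at 1.58 in KO young and at 0 in the other libraries, where a count of 0 allows up to 7.84 (WT young), 4.499 (WT old) and 2.30 (KO old), taking 3 counts as the limit. Olfactory ensheathing glia, which lie outside this lineage and served as a measure of stray RNA, held 0 to 1.11, the 0 of WT young allowing up to 3.05. The exact 95% Poisson intervals of neuroblasts and ensheathing glia, which like all others here cover counting error only, overlapped in each library, and in KO old the ensheathing glia had the higher value (1.11). Over the whole gates, Nr2e1 in neuroblasts could thus not be told from stray RNA at this depth. The 184 WT young neuroblasts assigned to the vSVZ had 11.6 CPM from 10 UMIs (interval 5.57 to 21.3), above the 3.05 limit of ensheathing glia. The 94 assigned to the RoB had 0 (interval up to 7.74), and vSVZ neuroblasts of the other libraries had 0 to 1.51. The 2 WT young mice had 9.29 and 5.78 CPM in their neuroblasts, from 6 and 4 UMIs, while the whole WT young gate had 2.77, so that cells with a hashtag call were not like the rest of this gate.

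**Figure D1:**
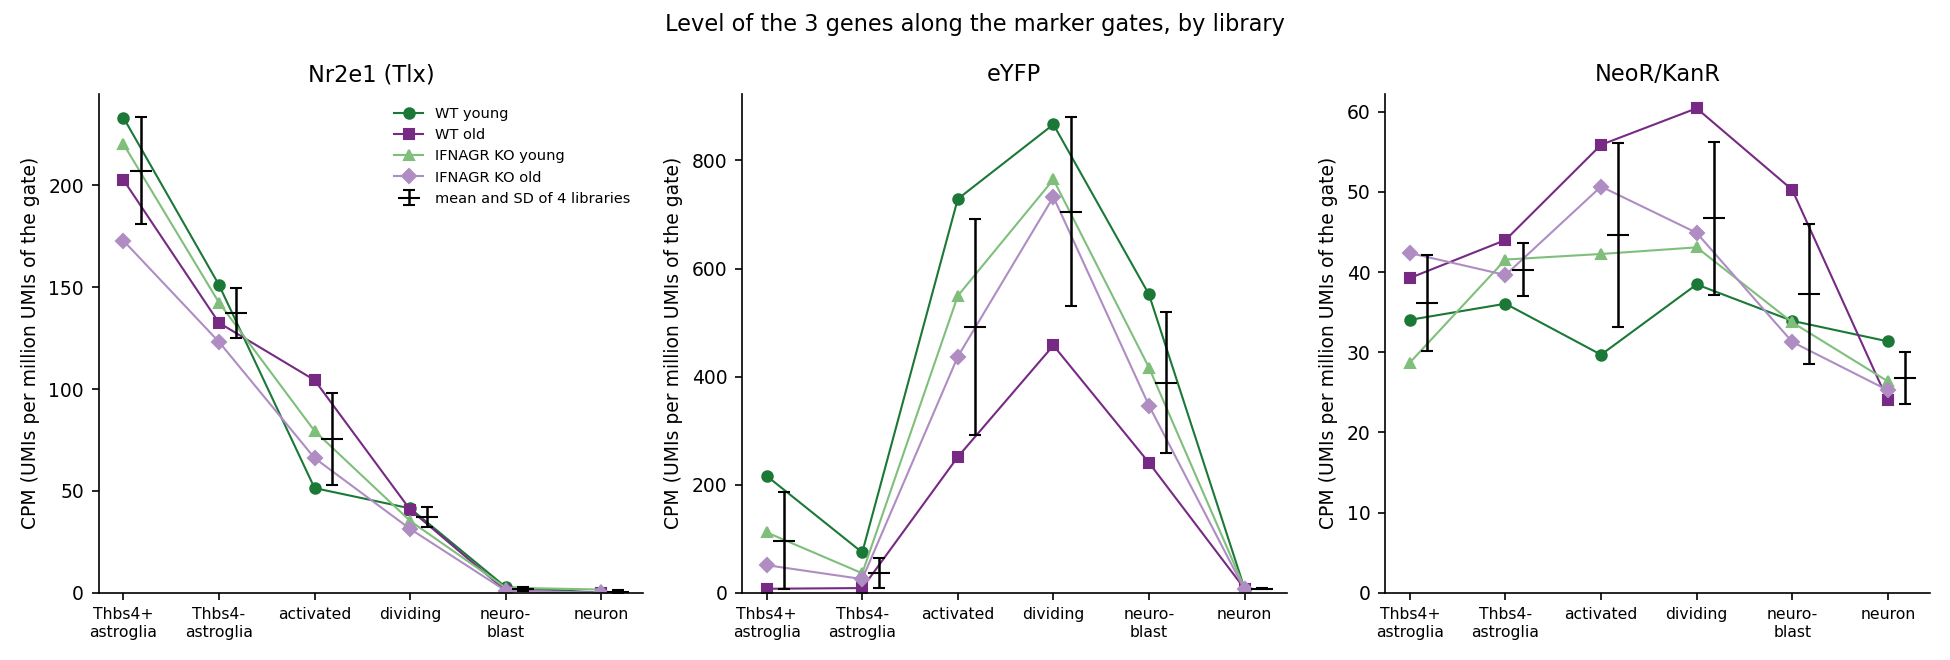
CPM of Nr2e1, eYFP and NeoR/KanR (y axes, each panel with its own scale from 0) in 6 marker gates (x axis) of 4 libraries, with the mean and SD of the libraries in black. Nr2e1 was highest in Thbs4+ astroglia (mean 207) and near 0 in neuroblasts, eYFP was highest in dividing cells (mean 705), and the gate means of NeoR/KanR lay between 26.7 and 46.7.

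The reporter had its maximum later in the lineage. Cells without eYFP could enter only as GLAST-positive vSVZ cells or as PSA-NCAM-low RoB cells. The sort thus bears on eYFP differences between gates, and its part was not tested. eYFP stood at 216, 7.43, 112 and 51.1 CPM in Thbs4+ astroglia and at 74.6, 8.70, 36.1 and 25.3 in Thbs4- astroglia. Activated cells had 729, 251, 550 and 437 CPM, and dividing cells 867, 458, 765 and 733. Neuroblasts had 552, 241, 417 and 346. WT young was the highest and WT old the lowest library in each of these 5 gates. Dividing cells were the highest gate in 4 of 4 libraries, by 1.19 to 1.82 times over activated cells and by 1.57 to 2.11 times over neuroblasts. The step from Thbs4+ astroglia to activated cells was 3.37 times (WT young), 4.92 times (KO young) and 8.55 times (KO old). In WT old the Thbs4+ value came from 7 UMIs (interval 2.99 to 15.3) and overlapped the stray level given next, so no fold is given.

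Neurons carried 7.84, 7.499, 8.96 and 6.12 eYFP CPM, below the neuroblasts of each library. Olfactory ensheathing glia held 3.05, 4.53, 6.49 and 4.64, and microglia 10.3, 0, 10.5 and 3.85, the 0 coming from 43 cells and allowing up to 11.7. The intervals of neurons and ensheathing glia overlapped in every library, so that eYFP in the gated neurons could not be told from stray RNA at this depth. The neuron gate held 63 to 231 cells per library.

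NeoR/KanR had similar levels in all gates. The NeoR/KanR mean was 36.1 ± 6.00 CPM (SD, n = 4 libraries) in Thbs4+ astroglia, 40.3 ± 3.35 in Thbs4- astroglia, 44.6 ± 11.4 in activated cells, 46.7 ± 9.53 in dividing cells, 37.3 ± 8.72 in neuroblasts and 26.7 ± 3.22 in neurons. Microglia, the macrophages of the brain, had 262, 192, 215 and 296 CPM, above every lineage gate of their library.

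The shares of cells with at least 1 UMI followed the levels, and the limit from the sort holds for the eYFP shares too. Nr2e1 was found in 61.5 to 72.3% of Thbs4+ astroglia, 46.5 to 55.4% of Thbs4- astroglia, 27.4 to 51.9% of activated cells, 24.5 to 29.1% of dividing cells and 0.568 to 1.32% of neuroblasts, against 0 to 0.886% of olfactory ensheathing glia, where the 0 of 170 cells in WT young allows up to 1.76%. eYFP was found in 5.65 to 46.5% of Thbs4+ astroglia, 4.88 to 17.9% of Thbs4- astroglia, 44.2 to 86.8% of activated cells, 65.3 to 92.7% of dividing cells and 50.3 to 74.9% of neuroblasts. The eYFP share of neurons was 3.17 to 5.63%, beside 1.76 to 4.79% in ensheathing glia. Since depth differed between gates, each cell was also thinned to 1000 UMIs. The thinned eYFP shares were 0 to 19.4% in Thbs4+ astroglia, 15.4 to 42.3% in activated cells, 26.5 to 54.0% in dividing cells and 23.6 to 36.4% in neuroblasts, and dividing cells remained the highest gate in each library. In WT old 0 of 124 thinned Thbs4+ astroglia had eYFP (interval up to 2.93%), and its thinned activated share (15.4%) lay below that of its neuroblasts (23.6%). The thinned Nr2e1 shares were 16.8 to 20.2% in Thbs4+ astroglia, 10.5 to 13.8% in Thbs4- astroglia, 5.05 to 13.5% in activated cells and 1.03 to 8.16% in dividing cells, and WT old activated cells (13.5%) then exceeded WT old Thbs4- astroglia (10.5%).

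**Figure D2:**
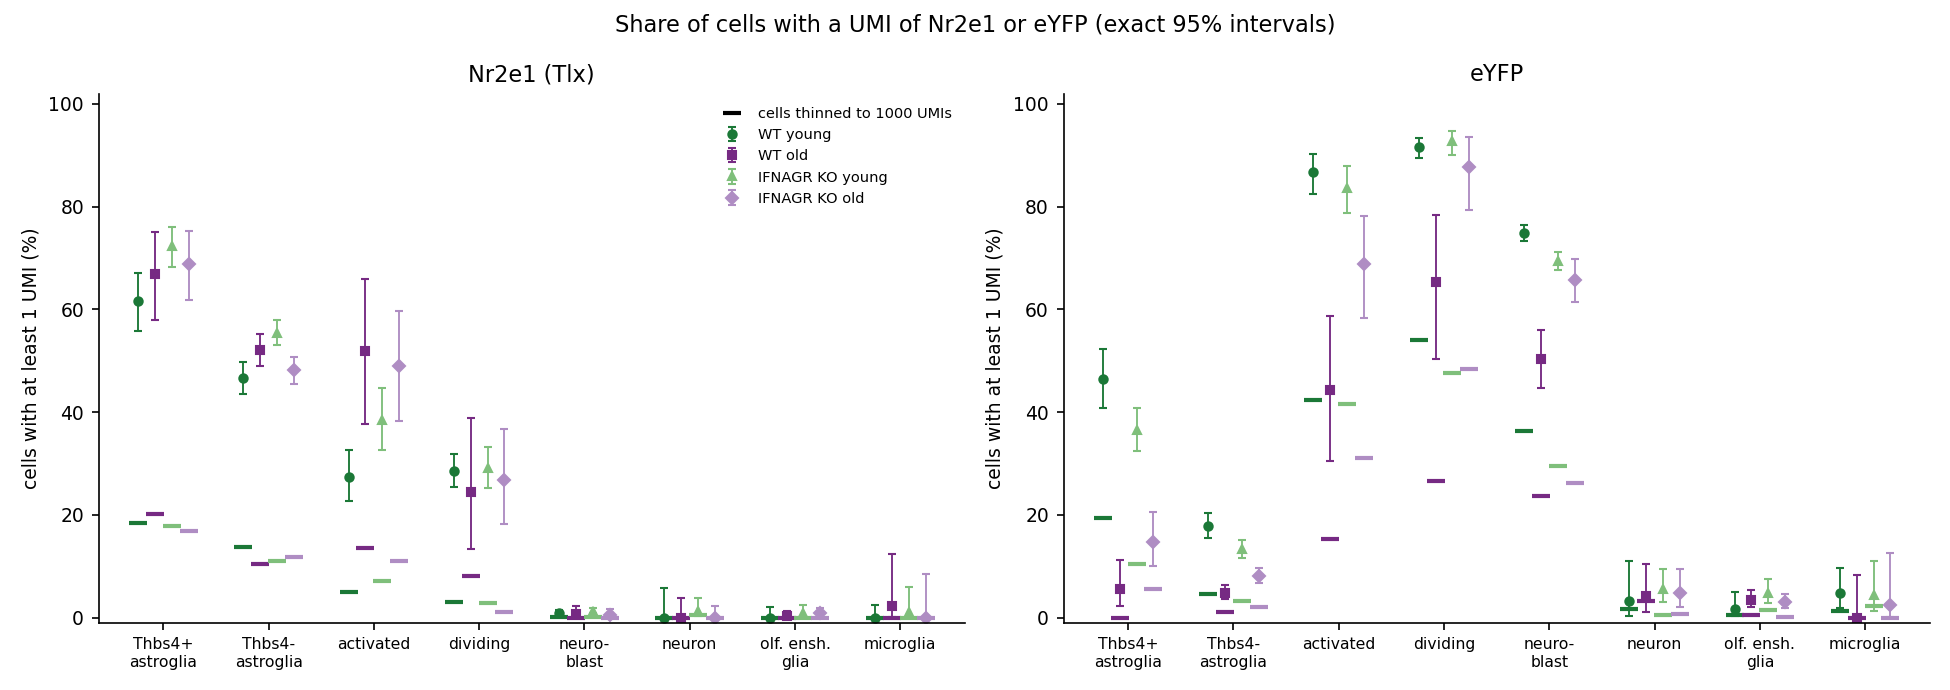
Share of cells (y axes, percent) with at least 1 UMI of Nr2e1 (left) and eYFP (right) in 6 lineage gates and in 2 cell types outside the lineage (x axis), by library, with exact 95% binomial intervals; horizontal dashes give the share after thinning each cell to 1000 UMIs. The eYFP share was highest in dividing cells (65.3 to 92.7%) and that of Nr2e1 in Thbs4+ astroglia (61.5 to 72.3%).

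Within single mice, Nr2e1 was higher in Thbs4+ than in Thbs4- astroglia in 8 of 8. The Thbs4+ values ran from 160 to 254 CPM with a median of 224, and the Thbs4- values from 118 to 180 with a median of 143. The mean difference was 75.1 ± 21.8 CPM (SD of the difference, n = 8 mice). The exact permutation p of this difference (sign flips over mice, two-sided) was 0.00781, the least that 8 mice can give, and 0.0521 after adjustment over the 20 tests of this kind, none of which passed 0.05. For eYFP the difference was 64.2 ± 55.3 CPM, higher in 7 of 8 mice (exact p = 0.0156, adjusted p = 0.0781). The exception was a WT old mouse with 6.21 against 6.67, and the other WT old mouse had 12.8 against 7.57. For NeoR/KanR the difference was 0.565 ± 11.5 (exact p = 0.906, adjusted p = 1). The gates also differed in tissue, with 576 vSVZ and 27 RoB cells among Thbs4+ astroglia and 1418 and 783 among Thbs4- astroglia. In the vSVZ alone, Nr2e1 was higher in Thbs4+ astroglia in 8 of 8 mice and eYFP in 7 of 8. Nr2e1 ran there from 160 to 256 CPM in Thbs4+ and from 143 to 213 in Thbs4- astroglia. No test was made within the vSVZ, so the part of tissue in these differences was not tested. A fit over 7948 genes with the mouse as a block (edgeR, added after the data were seen), in which 24.2% of genes were called at an adjusted p under 0.05, called Nr2e1 (log2 difference 0.58 ± 0.07 SE, adjusted p = 5.54e-08) and eYFP (1.37 ± 0.12 SE, adjusted p = 1.41e-11) but not NeoR/KanR (-0.09 ± 0.15 SE, adjusted p = 0.712).

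The later steps were covered by only 2 to 4 mice with at least 20 assigned cells in both gates, and no exact p could go below 0.125. Nr2e1 was lower in activated cells than in Thbs4+ astroglia in 4 of 4 mice, by a mean of 94.4 ± 41.9 CPM, while eYFP was higher in 4 of 4, with a Thbs4+ minus activated difference of -243 ± 127 (exact p = 0.125 and adjusted p = 0.357 for both). From dividing cells to neuroblasts eYFP was lower in 3 of 3 mice, by a mean of 312 ± 163 (exact p = 0.25, adjusted p = 0.455). Cells with a hashtag call differed from the rest of their gate. In activated cells of WT young, the 40 cells assigned to the vSVZ had 131 Nr2e1 CPM against 51.4 in all 317 cells of the gate, and 533 eYFP CPM against 729. In the vSVZ cells of KO young the Nr2e1 values were 193 against 79.4. Dividing cells of WT young had 70.6 in the assigned vSVZ cells against 41.4 in the gate. Levels per mouse and per library are therefore not interchangeable in the gates after the astroglia.

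Nr2e1 was higher in astroglia of the vSVZ than in those of the RoB. In the vSVZ its values were 205 and 230 CPM for the WT young mice, 167 and 179 for WT old, 188 and 217 for KO young and 146 and 170 for KO old. In the RoB they were 115 and 100.2, 93.0 and 127, 105 and 97.9, and 71.1 and 71.6. The tissues did not overlap, and the mean difference was 90.2 ± 25.4 CPM (higher in 8 of 8 mice, exact p = 0.00781, adjusted p = 0.0521). eYFP was higher in the vSVZ in 8 of 8 mice as well, by 39.4 ± 38.9 CPM (exact p = 0.00781, adjusted p = 0.0521), while NeoR/KanR differed by 0.424 ± 9.53 (exact p = 0.906, adjusted p = 1). The edgeR fit over 8726 genes with the mouse as a block, which called 17.8% of genes, called Nr2e1 (log2 difference 0.92 ± 0.09 SE, adjusted p = 1.4e-08) and eYFP (1.19 ± 0.14 SE, adjusted p = 2.88e-07) and not NeoR/KanR (-0.05 ± 0.13 SE, adjusted p = 0.876). Of the Thbs4+ astroglia with a hashtag, 576 came from the vSVZ and 27 from the RoB, and the sorting criteria differed too. The part of either in the tissue difference was not tested.

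Neuroblasts with a hashtag carried 533, 207, 409 and 399 eYFP CPM in the vSVZ and 415, 191, 189 and 272 in the RoB. The vSVZ value was the higher one in 4 of 4 libraries. The counting intervals of the tissues overlapped in WT old, where 50 and 33 cells were assigned, but not in the other libraries.

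Within vSVZ astroglia, cells with an eYFP UMI had more Nr2e1. In WT young, 134 eYFP-positive cells had 294 CPM and 270 eYFP-negative cells 181. The values were 197 against 174 in the WT old library, 289 against 177 for KO young and 201 against 152 for KO old. The counting intervals overlapped in WT old, which had 24 eYFP-positive cells, and not in the others. Over the 6 mice with at least 20 cells on both sides, the eYFP-positive cells ranged from 170 to 299.6 with a median of 285, and the eYFP-negative cells from 143 to 194 with a median of 167. The difference was 91.0 ± 38.2 CPM (higher in 6 of 6, exact sign-flip p = 0.0312, the least that 6 mice can give, adjusted p = 0.125). With the mouse as a block, edgeR called 23.2% of 6529 genes, Nr2e1 among them (log2 difference 0.53 ± 0.10 SE, adjusted p = 0.000122) and not NeoR/KanR (-0.33 ± 0.22 SE, adjusted p = 0.311). Taken apart, Thbs4+ astroglia showed differences of 58.5 (WT young), 84.9 (KO young) and 51.4 CPM (KO old), while Thbs4- astroglia showed 13.4 to 75.2 in these libraries and -3.43 in WT old. The eYFP-positive vSVZ astroglia were somewhat deeper in each library, for example with medians of 5899 against 5381.5 UMIs in WT young. The part of depth and of the sort in these differences was not tested.

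Activated cells had the opposite order. Their Nr2e1 level was 43.3, 42.7, 70.4 and 58.6 CPM in eYFP-positive and 114, 162, 132 and 83.9 in eYFP-negative cells. The eYFP-negative cells, 28 to 44 per library, were higher in 4 of 4 libraries, with intervals that overlapped in KO old only. A fit with the library as a block, chosen after these values were seen, called 29.2% of 5915 genes and gave a log2 difference of -1.17 ± 0.19 SE for Nr2e1 (edgeR, adjusted p = 6.99e-05). The eYFP-positive cells were again deeper, with medians of 9743 against 8406 UMIs in WT young. Cells without eYFP could enter the sort only as GLAST-positive vSVZ cells or as PSA-NCAM-low RoB cells. The part of the sort, of depth and of cell makeup in this difference was not tested. Dividing cells showed no such gap in the libraries with at least 20 cells on both sides, with 41.2 against 44.5 in WT young and 35.5 against 32.3 in KO young.

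NeoR/KanR was lower in eYFP-positive than in eYFP-negative neuroblasts. The levels were 28.0, 41.6, 28.6 and 26.3 CPM in eYFP-positive and 55.6, 59.0, 48.6 and 43.4 in eYFP-negative cells. The fit with the library as a block, which called 4.09% of 9496 genes and was also chosen after the values were seen, gave a log2 difference of -0.77 ± 0.11 SE (edgeR, adjusted p = 4.18e-05). Activated cells had 24.5, 45.7, 36.8 and 47.6 CPM in eYFP-positive against 69.2, 65.3, 74.5 and 57.8 in eYFP-negative cells, and a fitted difference of -0.94 ± 0.22 SE (adjusted p = 0.00279). In neuroblasts and in activated cells, the counting intervals overlapped in WT old and KO old and not in WT young and KO young. Astroglia were mixed, since the difference in Thbs4- astroglia was -19.0 in WT young and -11.3 in KO young but 3.40 in WT old and 4.48 in KO old. The eYFP-positive neuroblasts were deeper in 3 libraries, with 4373 against 3539 UMIs at the median in WT young, and slightly shallower in WT old, with 5603 against 5720.5. The part of depth, of the sort and of cell makeup in these differences was not tested.

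**Figure D3:**
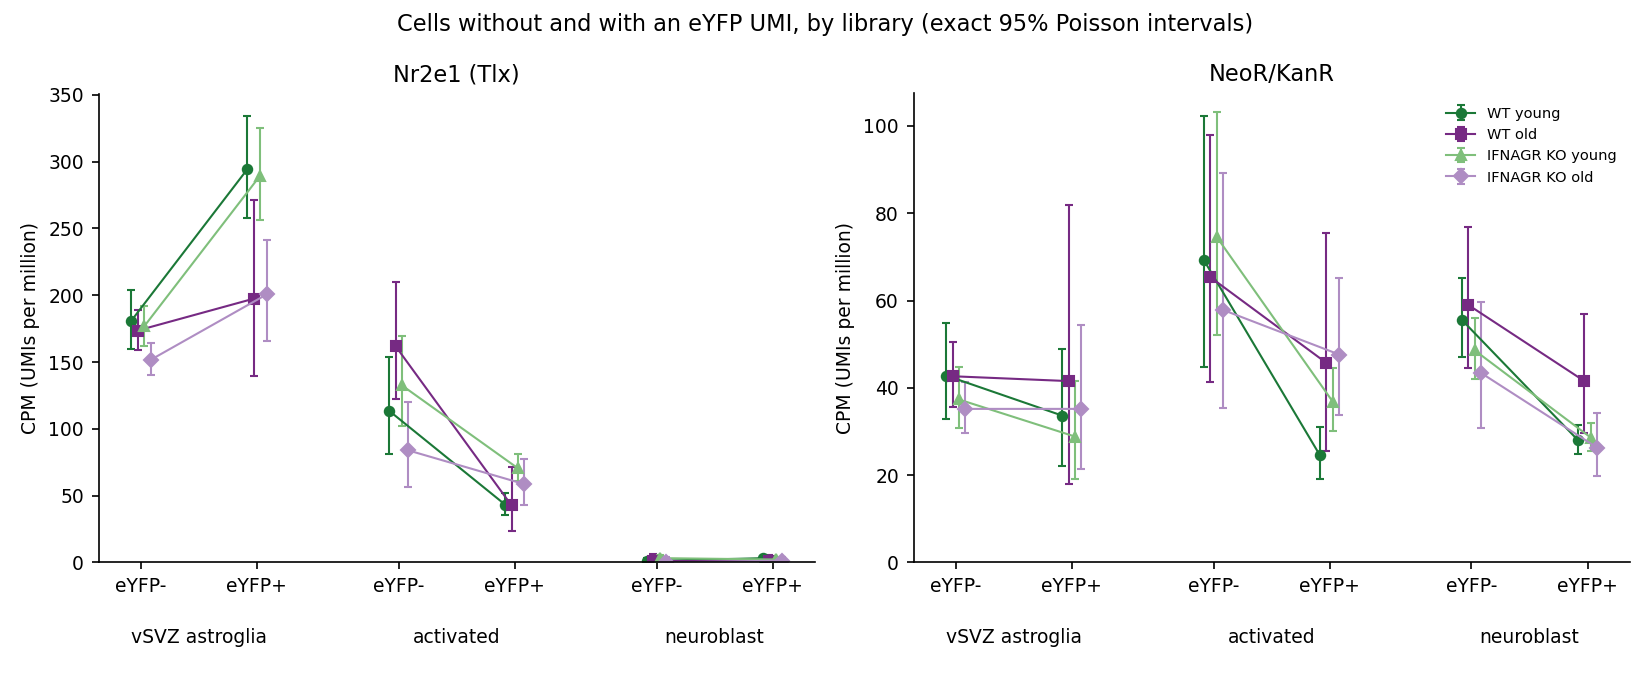
CPM of Nr2e1 (left) and NeoR/KanR (right) on the y axes in cells without (eYFP-) and with (eYFP+) an eYFP UMI, in vSVZ astroglia, activated cells and neuroblasts of each library, with exact 95% Poisson intervals. Nr2e1 was higher in eYFP+ vSVZ astroglia (294 against 181 in WT young) and lower in eYFP+ activated cells (43.3 against 114), while NeoR/KanR was lower in eYFP+ neuroblasts in all 4 libraries.

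By age and genotype, the reporter differed far more than its driver. eYFP in vSVZ astroglia was 126 and 177 CPM for the WT young mice against 10.8 and 7.36 for WT old, and 74.1 and 73.6 for KO young against 23.95 and 46.6 for KO old. No 2 groups overlapped. In edgeR's quasi-likelihood fit over 10484 genes, eYFP fell by 4.17 on the log2 scale with age in WT mice (SE 0.29, adjusted p = 2.23e-09), a comparison that called 15.9% of genes. With age in KO mice it fell by 1.06 (SE 0.21, adjusted p = 0.00491, 3.22% of genes called). KO minus WT, it differed by -1.06 ± 0.19 SE in young mice (adjusted p = 0.00162, 3.4% called) and by 2.05 ± 0.35 SE in old mice (adjusted p = 0.00514, 0.162% called). The age change itself differed between genotypes by 3.11 ± 0.39 SE (adjusted p = 8.24e-05, 2.02% called). Free RNA was not even between the reactions: near-empty barcodes of 5 to 100 UMIs held 423, 35.7, 225 and 59.6 eYFP CPM, the KO young value from 49 UMIs, which is the same order of groups as in the astroglia. The ensheathing glia held 3.05 to 6.49 CPM, from too few UMIs to order the groups. The part of free RNA in the group differences was not tested. WT young also had the shorter interval after tamoxifen. The part of this interval cannot be told apart from that of age in WT mice, nor from that of genotype in young mice. Nor can it be told apart from the difference between genotypes in the age change, since the KO groups carry the same label. KO young mice also had tamoxifen at 7 weeks against 10 in WT young, and KO old mice were 92 and 105 weeks old against 80 in WT old. In every gate, the part of these ages cannot be told apart from that of genotype.

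The age difference in WT mice was seen in both kinds of vSVZ astroglia. Thbs4+ cells had 180 and 254 CPM for WT young against 13.9 and 6.49 for WT old, and Thbs4- cells 91.8 and 120 against 10.1 and 7.59. The fitted log2 differences were -4.58 ± 0.41 SE (edgeR, adjusted p = 2.3e-09) and -3.67 ± 0.32 SE (adjusted p = 1.36e-07), and the difference between genotypes in the age change was 3.68 (adjusted p = 0.000593) and 3.04 (adjusted p = 0.000236). All vSVZ astroglia of WT old had 8.52 CPM (interval 5.66 to 12.3), which overlapped with ensheathing glia of that library at 4.53 (2.76 to 6.99).

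The other eYFP calls in vSVZ astroglia depended on single mice. The age call in KO mice was lost without KO old mouse 1 (-0.62, edgeR adjusted p = 0.119) and the genotype call in young mice without WT young mouse 2 (-0.73, adjusted p = 0.273). The genotype call in old mice was lost without KO old mouse 2 (1.49, adjusted p = 0.101) or WT old mouse 2 (1.73, adjusted p = 0.279).

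Nr2e1 passed in none of these 5 comparisons. Its vSVZ astroglia values, given above by mouse, were 188 to 230 CPM in the 4 young and 146 to 179 in the 4 old mice, without overlap. The fitted age differences were -0.33 ± 0.12 SE in WT (edgeR, adjusted p = 0.0699) and -0.34 ± 0.11 SE in KO mice (adjusted p = 0.106). The genotype differences were -0.09 ± 0.12 SE in young (adjusted p = 0.766) and -0.11 ± 0.12 SE in old mice (adjusted p = 0.871), and the age change differed between genotypes by -0.01 ± 0.17 SE (adjusted p = 0.987). NeoR/KanR also passed in none, with log2 differences from -0.24 ± 0.18 SE for genotype in old mice (adjusted p = 0.772) to 0.10 ± 0.20 SE for age in WT mice (adjusted p = 0.785). The NeoR/KanR levels were 38.8 and 40.0 CPM for WT young, 39.6 and 44.1 for WT old, 37.6 and 33.3 for KO young and 36.1 and 34.2 for KO old, so that the 4 KO mice, with their additional knockout alleles, lay below the 4 WT mice in this gate. This order was not seen elsewhere: in RoB astroglia the KO young mice had 51.2 and 32.6 against 24.3 and 27.1 for WT young (log2 0.81 ± 0.38 SE, edgeR adjusted p = 0.290), and in neuroblasts 47.7 and 50.4 against 29.4 and 25.999 (0.83 ± 0.29 SE, adjusted p = 0.392).

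**Figure D4:**
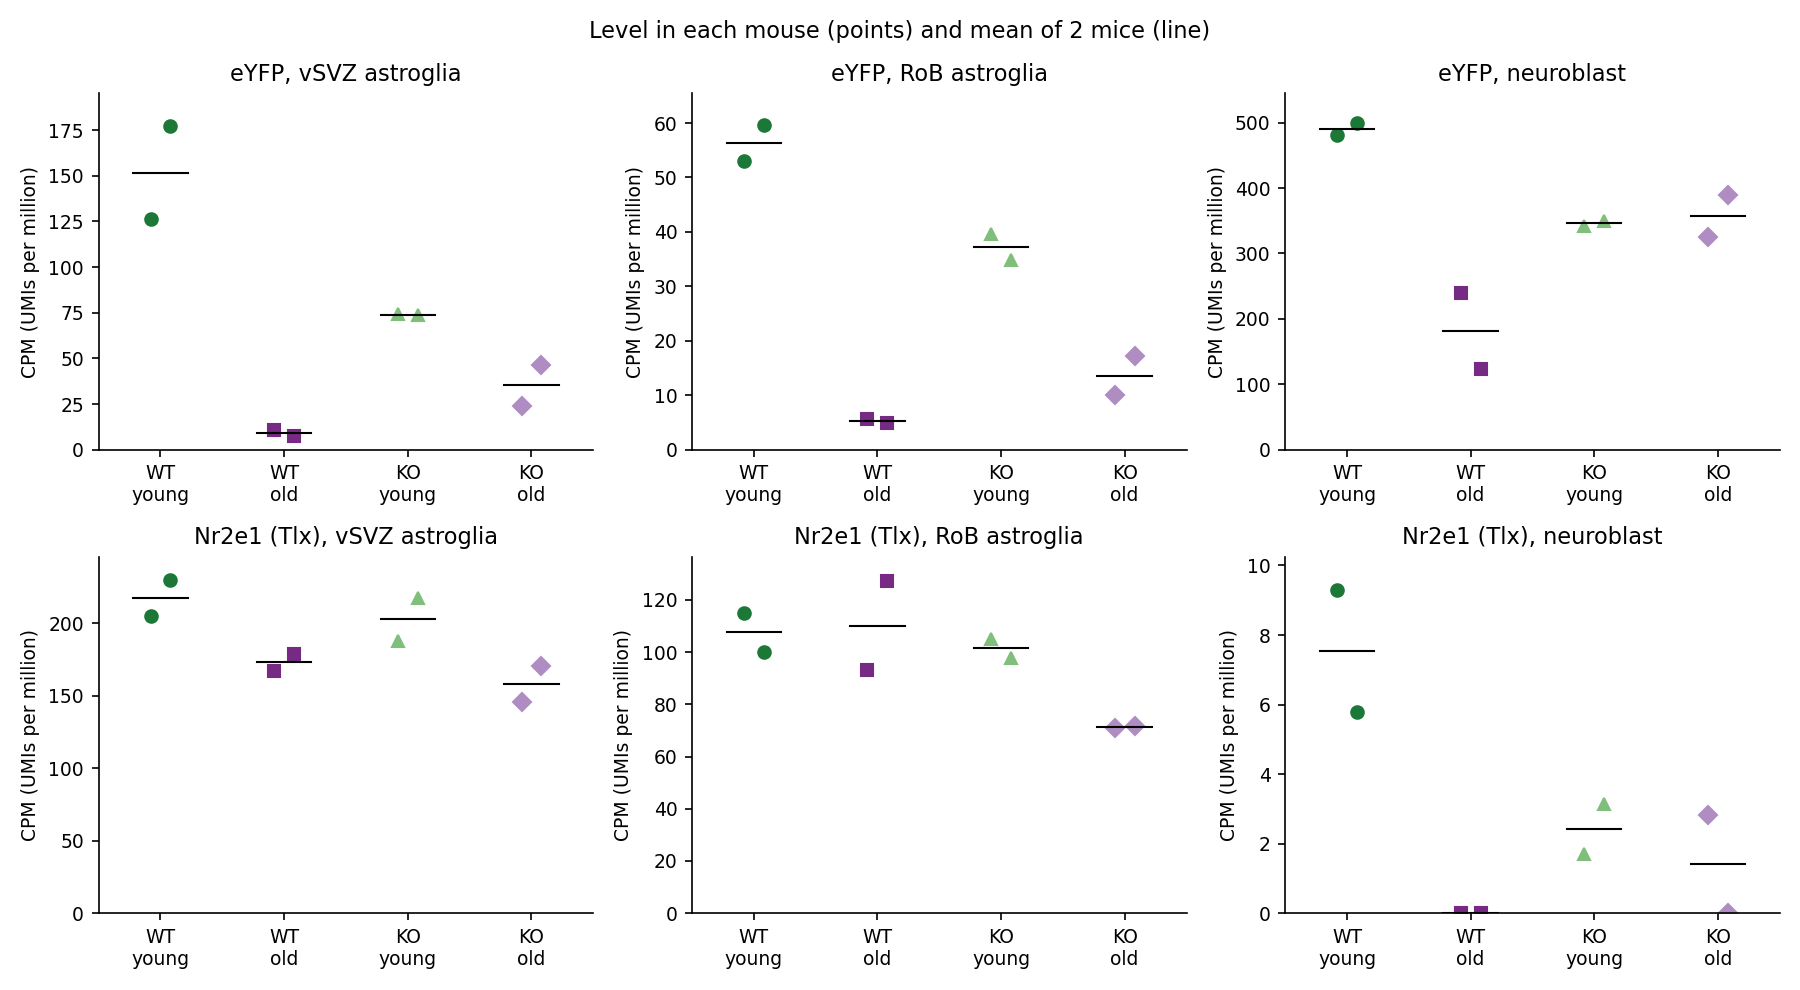
CPM of eYFP (top) and Nr2e1 (bottom) in each of 8 mice (points; y axes from 0, each panel with its own scale) in vSVZ astroglia, RoB astroglia and neuroblasts, by group (x axis), with lines at the means of 2 mice. eYFP was lowest in the WT old mice in all 3 gates, and Nr2e1 in vSVZ astroglia ran from 146 to 230.

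In RoB astroglia eYFP was 53.0 and 59.6 CPM for the WT young mice, 5.66 and 4.97 for WT old, 39.7 and 34.8 for KO young and 9.95 and 17.2 for KO old. The groups stood in the order seen in the vSVZ, at lower levels. eYFP fell by 3.35 on the log2 scale with age in WT mice (SE 0.44, edgeR adjusted p = 7.7e-05, 1.43% of 8464 genes called). The age difference in KO mice was -1.36 ± 0.38 SE (adjusted p = 0.277, with 0% of genes called by edgeR, 541 genes at an unadjusted p under 0.05 and 0 genes called by DESeq2). The genotype differences were -0.53 ± 0.36 SE in young (adjusted p = 0.553, 3.75% called) and 1.46 ± 0.49 SE in old mice (adjusted p = 0.386, 0.189% called), and the age changes differed by 1.98 ± 0.61 SE (adjusted p = 0.150, 0.733% called). Nr2e1 was not called in the RoB, and its largest difference was -0.56 ± 0.20 SE for genotype in old mice (adjusted p = 0.471). NeoR/KanR was not called either, with differences from -0.85 ± 0.46 SE to 0.81 ± 0.38 SE.

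Neuroblasts had 482 and 499.8 eYFP CPM for the WT young mice, 239 and 123 for WT old, 342 and 349 for KO young and 325 and 390 for KO old. Both WT old mice lay below the other 6, and the KO groups overlapped. eYFP fell by 1.37 with age in WT mice (SE 0.20, edgeR adjusted p = 0.00209, 1.63% of 7137 genes called), and its age difference in KO mice was 0.03 ± 0.17 SE (adjusted p = 0.989, 0.0841% called). The genotype differences were -0.50 ± 0.17 SE in young (adjusted p = 0.367, 0.294% called) and 0.90 ± 0.21 SE in old mice (adjusted p = 0.510, with 0% of genes called by edgeR, 447 at an unadjusted p under 0.05 and 0 called by DESeq2). The difference between genotypes in the age change was 1.397 ± 0.27 SE (adjusted p = 0.0766, 0.0981% called), and it passed under several alternative settings and without either of 2 mice. NeoR/KanR was not called in neuroblasts, with differences from -1.20 ± 0.47 SE to 0.83 ± 0.29 SE, and Nr2e1 was below the filter on low counts. These sums rested on 29 to 140 neuroblasts per mouse, all with a hashtag call. Over all cells, calls were made for 21.5% in WT young and 20.5% in KO young, against 60.4% in WT old and 53.1% in KO old. The whole neuroblast gates had 552 and 241 eYFP CPM in WT young and WT old, and 417 and 346 in KO young and KO old. The age differences of the assigned neuroblasts thus need not hold for the whole gates.

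**Figure D5:**
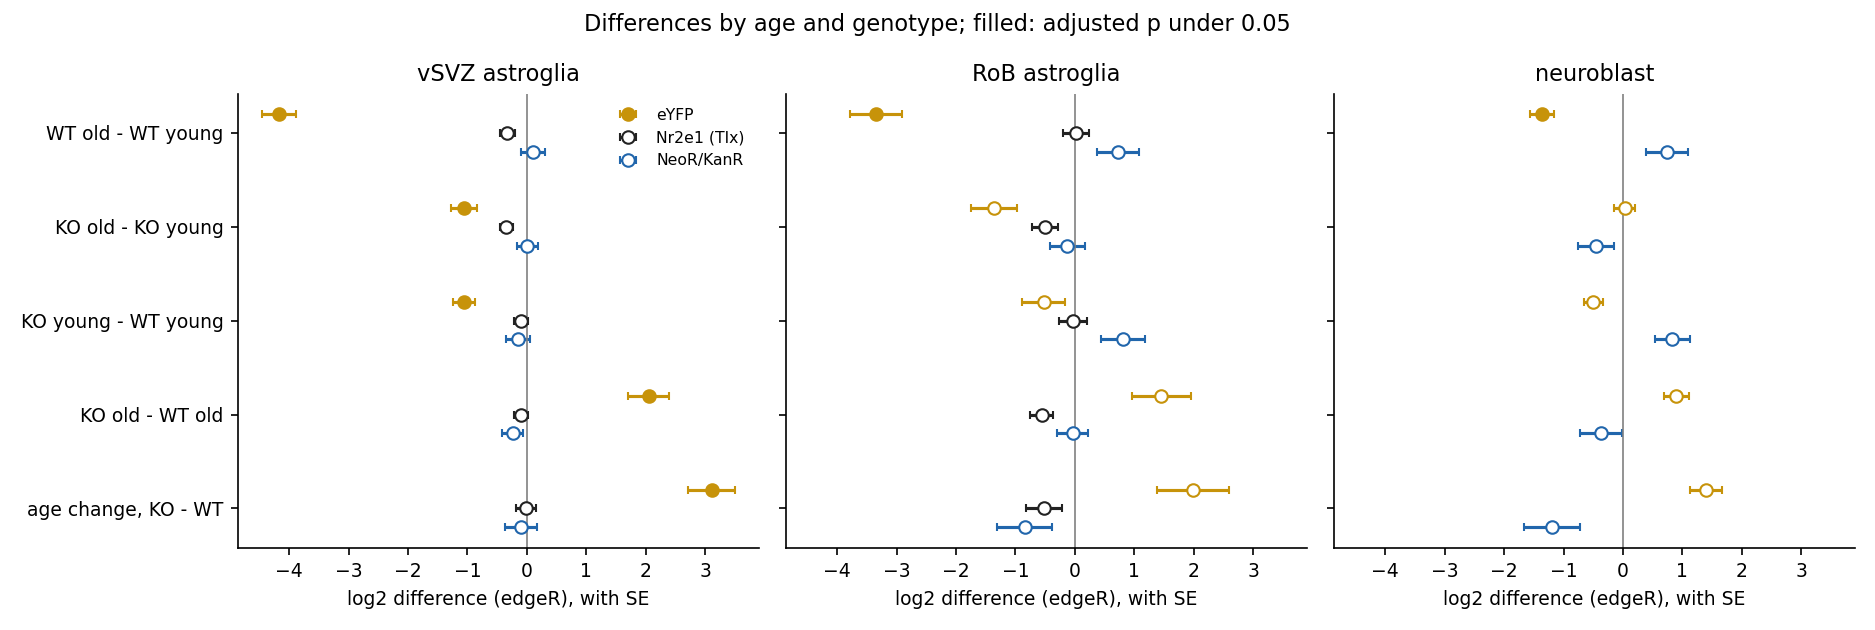
Log2 differences (x axes) of eYFP, Nr2e1 and NeoR/KanR by age and genotype (rows) in 3 gates, with standard errors from edgeR's quasi-likelihood fit; filled points passed an adjusted p of 0.05. eYFP in vSVZ astroglia passed in all 5 comparisons, from -4.17 for age in WT mice to 3.11 for the difference of the age changes, and Nr2e1 in none.

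Of the other 6 listed receptors of the NR2 family, only Nr2f1 and Nr2f2 (the COUP-TFs, which pattern the developing nervous system) had a gate mean above 25 CPM. Nr2f1 had means of 89.7 CPM in Thbs4+ astroglia and 51.0 in neuroblasts, and Nr2f2 was highest in Thbs4- astroglia, at 80.7 against 26.9 in Thbs4+ astroglia.

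Corepressor partners of Tlx were mostly lower in Thbs4+ astroglia, the gate with the most Nr2e1, than in neuroblasts. Of 10 listed partners, 8 were lower in Thbs4+ astroglia than in neuroblasts in 4 of 4 libraries and 1 was higher, with a median log2 difference of -1.09. Among all 6344 genes of at least 20 CPM, 50.9% were lower and 34.7% higher, with a median of -0.22. Kdm1a, which encodes Lsd1, had means of 94.5 CPM in Thbs4+ astroglia and 382 in neuroblasts, the deacetylase gene Hdac2 had 56.1 and 410, and the zinc finger gene Bcl11a had 7.58 and 213. Hdac1 was the member that was higher, with 70.0 and 59.2, and Hdac3 was higher in 1 of 4 libraries.

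Listed TLX targets of the literature differed in their course, in a comparison that sets an astroglia gate against a neuroblast gate. The astrocyte genes Gfap and S100b had 104 and 60.0 CPM in Thbs4+ astroglia and 0.675 and 4.78 in neuroblasts, as means over 4 libraries. Hes1, a Notch target, had 58.1 and 1.17. Wnt7a, a Wnt ligand gene, had 21.5 and 19.0 and was higher in Thbs4+ astroglia in 3 of 4 libraries, and the deacetylase gene Sirt1 had 23.4 and 32.3 and was higher in 1 of 4. Cdkn1a, which encodes the cell cycle inhibitor p21, had 3.62 in Thbs4+ astroglia, 78.5 in dividing cells and 213 in neurons. Aqp4, another listed target, is also a gate marker, so the gates set part of its course.

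By age and genotype, none of the TLX partners was called by edgeR in any of the 5 comparisons in vSVZ astroglia (10 tested), RoB astroglia (8 tested) or neuroblasts (10 tested). At an unadjusted p under 0.05 there were 0 to 3 of them per comparison, and DESeq2 called 0. The 3 partners belonged to age in WT vSVZ astroglia, where 3079 of all 10484 genes were at that p. The fewest genes at that p were 447 of 7137, for genotype in old mice in neuroblasts. edgeR called 0 to 15.9% of all genes over these comparisons. Among the TLX targets, S100b rose by 0.92 ± 0.15 SE with age in WT vSVZ astroglia (edgeR, adjusted p = 9.92e-05), and the water channel gene Aqp4 rose by 0.54 ± 0.10 SE (adjusted p = 0.000311). The S100b call was lost in Thbs4+ astroglia alone (1.16, edgeR adjusted p = 0.178) and the Aqp4 call in Thbs4- astroglia alone (0.24, adjusted p = 0.165). In RoB astroglia neither passed with age in WT mice (S100b 0.51, edgeR adjusted p = 0.116, and Aqp4 -0.35, adjusted p = 0.334). In vSVZ astroglia, S100b (0.63 ± 0.15 SE, adjusted p = 0.0158) and Aqp4 (0.39 ± 0.09 SE, adjusted p = 0.0172) were higher in KO young than in WT young mice, and both calls were lost without WT young mouse 2 (0.42, adjusted p = 0.417, and 0.40, adjusted p = 0.192), among others.

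In RoB astroglia, S100b was higher in KO young than in WT young mice by 0.75 ± 0.17 SE (edgeR, adjusted p = 0.0063, lost without either WT young mouse), as in the vSVZ, while Aqp4 was lower there by a log2 difference of -0.71 ± 0.17 SE (adjusted p = 0.0132), opposite to the vSVZ, a call lost without KO young mouse 2 (-0.48, adjusted p = 0.167) or WT young mouse 1 (-0.41, adjusted p = 0.441). Nr2f2 rose by 1.62 ± 0.28 SE with age in WT mice (adjusted p = 0.00165), and this call was lost without either WT young mouse (1.78, adjusted p = 0.0733, and 1.499, adjusted p = 0.106). In young mice, Nr2f2 was higher in KO than in WT by 2.33 ± 0.28 SE (adjusted p = 1.52e-06), with adjusted p of at most 0.00109 without any 1 mouse. Nr2f1 was higher by 1.39 ± 0.28 SE (adjusted p = 0.00236, lost without KO young mouse 1 or WT young mouse 1, adjusted p = 0.0563 and 0.0559).

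Over the 24 values of gate by library, among 6761 genes, those most like Nr2e1 were Prdx6, a peroxidase (Spearman's rho 0.987), Nxn (0.987), Cyp20a1 (0.986), Pdlim4 (0.982) and Idh2, a mitochondrial isocitrate dehydrogenase (0.982). Those most like eYFP were Cdk4, a kinase of the G1 phase (0.974), Ehd1 (0.971), Rnaseh2b (0.963), Pih1d1 (0.963) and Phb2 (0.961). These values describe points that share libraries and are no test. eYFP and Nr2e1 had a rho of -0.03 with each other. At the reporter locus, the transcript Gt(ROSA)26Sor had means of 0.0160 to 1.43 CPM in the 6 gates, and Fas, the other altered locus, had 8.05 in Thbs4+ astroglia and 0.182 in neuroblasts.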

How the data were processed

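The authors processed reads with kallisto and bustools on GRCm38, with Scanpy 1.6.0 downstream (per the labels), and deposited raw UMI counts per gene and barcode, and hashtag counts. Each library held 27096070 to 78028524 UMIs. Retained barcodes had at least 100 and at most 6000 genes, 1000 to 20000 UMIs and less than 10% mitochondrial counts, and 335 doublets (Scrublet in scanpy 1.11.5) were removed. A multinomial mixture of hashtag counts gave tissue and, by the hashtag number, mouse. Gates needed 3 of 6 markers, and Thbs4 split astroglia. Mice with at least 20 cells on both sides were compared by exact sign-flip permutation, Benjamini-Hochberg adjusted over 20 tests. Age and genotype were tested on sums per mouse with edgeR 4.0.16 (TMM, filterByExpr, quasi-likelihood, adjusted over all genes), tested on simulated data, with DESeq2 1.42.0 as an alternative. With 2 mice of 1 reaction per group, p-values measure the spread between those mice. Likeness used genes of at least 20 CPM and no gate marker, on log2(CPM + 10). Intervals are exact Poisson or Clopper-Pearson, at 95%. Named genes were the 3 genes, the receptors, list members past the test or with a level described, and the 5 genes most alike. Members and lists were chosen with earlier results of these data known. One sample without a group in its labels was not used. Some listed genes are not reported here, and no sequence is shown.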

Additional observations from a re-analysis of the deposited data

Results flagged for a closer look

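The age change of eYFP in vSVZ astroglia differed between the genotypes by 3.11 on the log2 scale, the drop being smaller in KO than in WT mice, by a test of the difference itself (edgeR interaction, adjusted p = 8.24e-05). Without each mouse in turn it was 2.56 to 3.55, with adjusted p from 5.05e-07 to 0.00599. The labelled interval after tamoxifen was 6 weeks in WT young and 9 weeks in WT old but 9 weeks in both KO groups, near-empty barcodes held 423 and 35.7 eYFP CPM in WT young and WT old against 225 and 59.6 in KO young and KO old, and the WT old level overlapped that of ensheathing glia. Interval, reaction and the interaction cannot be told apart. The age change of Nr2f2 in RoB astroglia differed by -1.94 (adjusted p = 0.00649), which did not pass when WT young mouse 1 (-2.10, adjusted p = 0.114) or WT young mouse 2 (-1.82, adjusted p = 0.0983) was left out. Groups of 2 mice were too small to test for single outlying mice.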

How the results depend on the processing

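Of the alternatives of the eYFP, Nr2e1 and NeoR/KanR differences by age and genotype, 519 of 570 kept direction and call. The exceptions follow, and the cause was not tested unless named. Depth limits neuron eYFP and neuroblast Nr2e1, which lie near stray RNA over the whole gates. No paired analysis was possible because the groups hold different mice, and mouse numbers link no pair across groups.

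With a strict hashtag call the Thbs4+ minus Thbs4- differences (64.3 CPM for eYFP, 72.5 for Nr2e1) and the vSVZ minus RoB differences (53.2 and 111) passed after adjustment, as they did with 4 of 6 markers for Nr2e1 (72.2 and 84.5) and for eYFP between tissues (39.5). The fits with the mouse as a block also passed (log2 1.37 and 0.58 between astroglia, 1.19 and 0.92 between tissues, and 0.53 for Nr2e1 by eYFP), with NeoR/KanR at -0.0943 and -0.0466. NeoR/KanR differences, which never passed, also turned with doublets kept (-0.0577 between astroglia, -1.84 between tissues), with the strict call (-1.12 and -1.82), after thinning (8.36 for Thbs4+ minus activated, 24.1 for neuroblast minus neuron) and on the log2 scale (0.0120 for neuroblast minus neuron).

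For age and genotype in vSVZ astroglia, the eYFP age change in KO mice did not pass with DESeq2 (-1.04), the strict call (-0.72), or in Thbs4+ (-0.90) or Thbs4- astroglia alone (-0.64). Its genotype difference did not pass in young mice with DESeq2 (-1.04) or in old mice in Thbs4- astroglia (1.72). In neuroblasts the eYFP interaction passed without a filter on low counts (1.43), with DESeq2 (1.39), 4 of 6 markers (1.52) and doublets kept (1.47), and the genotype difference in old mice without a filter (0.94). The RoB interaction passed with 4 of 6 markers (2.79). Values that turned without passing were the Nr2e1 interaction in the vSVZ (0.00329 with DESeq2 size factors, 0.00359 with DESeq2, 0.0148 with doublets kept, 0.18 with the strict call, 0.0839 in Thbs4- astroglia) and the RoB age change in WT mice (-0.0306 with 4 of 6 markers, -0.28 with the strict call). For NeoR/KanR in the vSVZ these were the age change in WT mice (-0.0116, Thbs4- astroglia), the age change in KO mice (-0.0221 with 4 of 6 markers, -0.00305 with doublets kept, -0.0246 with the strict call, -0.12 in Thbs4- astroglia) and the genotype difference in young mice (0.0176, strict call). DESeq2 gave no adjusted p for the eYFP interaction in the vSVZ or for eYFP age in WT and interaction in the RoB, and the strict call could not be fitted for neuroblasts.

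Without each mouse in turn, NeoR/KanR ran from -1.91 to 2.32 CPM for Thbs4+ minus Thbs4- astroglia, -5.02 to 3.90 for Thbs4+ minus activated, -1.41 to 16.2 for dividing minus neuroblast and -1.59 to 2.43 between tissues. In vSVZ astroglia the log2 ranges for eYFP were -1.62 to -0.62 (age in KO), -1.26 to -0.73 (genotype in young) and 1.49 to 2.49 (genotype in old). For Nr2e1 they were -0.41 to -0.21 (age in WT, which passed without KO old mouse 2, -0.34, edgeR adjusted p = 0.0452), -0.21 to 0.0287 (genotype in young), -0.24 to 0.0270 (genotype in old) and -0.14 to 0.12 (interaction). NeoR/KanR gave -0.0130 to 0.16 (age in WT), -0.0849 to 0.0914 (age in KO) and -0.17 to 0.0223 (interaction). In RoB astroglia Nr2e1 gave -0.21 to 0.23 (age in WT) and -0.14 to 0.0604 (genotype in young), and NeoR/KanR -0.34 to 0.27 (age in KO) and -0.17 to 0.10 (genotype in old). Neuroblast eYFP gave -0.11 to 0.15 (age in KO), 0.59 to 1.60 (genotype in old, which passed without WT old mouse 1, 1.60, adjusted p = 0.0382) and 1.08 to 2.09 (interaction, which passed without KO young mouse 1, 1.39, adjusted p = 0.0343, or WT old mouse 1, 2.09, adjusted p = 0.00315, by edgeR). Calls lost without single mice were those of eYFP in vSVZ astroglia for age in KO, genotype in young and genotype in old, as given with their values above.

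Thinning to 1000 UMIs lowered the mean shares of positive cells. In Thbs4+ astroglia they became 18.3% for Nr2e1 and 4.39% for NeoR/KanR, and in Thbs4- astroglia 11.8%, 3.53% and, for eYFP, 2.74%. For eYFP, NeoR/KanR and Nr2e1 they became 32.6%, 4.61% and 9.16% in activated cells, 44.1%, 4.85% and 3.76% in dividing cells and 28.9%, 3.27% and 0.0717% in neuroblasts, and for the first 2 of these 1.45% and 2.43% in neurons.

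The number of genes called in vSVZ astroglia was 1671 for age in WT mice (166 to 1763 over the settings), 338 for age in KO mice (25 to 502), 356 for genotype in young (36 to 449), 17 in old mice (4 to 76) and 212 for the interaction (3 to 312). In the RoB the numbers were 121 (13 to 255), 0 (0 to 39), 317 (99 to 397), 16 (4 to 68) and 62 (2 to 140), and in neuroblasts 116 (43 to 337), 6 (1 to 167), 21 (13 to 92), 0 (0 to 12) and 7 (4 to 32).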
